A study of Homo sapiens with 24 samples.

Results

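The epidermal differentiation complex is a cluster of genes on chromosome 1 whose products build the outer layers of the epidermis. Its members were taken as the protein-coding RefSeq genes that start between 151.9 and 153.8 Mb of chromosome 1 and carry one of the family names of the cluster (S100A, LCE, SPRR, FLG, TCHH, RPTN, HRNR, CRNN, CRCT1, IVL, SMCP, LORICRIN, PGLYRP, PRR9 and KPRP). This gave 61 of the 19866 coding genes on the primary chromosomes. They lie over 1651 kb, from the first base of S100A10 to the last base of S100A13 (hg38, chr1:151982915-153634361). By symbol they fall into 16 S100A genes, 7 fused-type S100 genes, 19 LCE genes, 11 SPRR genes, 2 PGLYRP genes and 6 other genes (IVL, LORICRIN, PRR9, SMCP, KPRP and CRCT1). The choice used names and positions, not peaks.

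Keratinocytes that leave the basal layer switch on these genes in a set order and replace their plasma membrane by the cornified envelope, a shell of proteins cross-linked by transglutaminases. Involucrin is laid down early as a scaffold, loricrin and the small proline-rich (SPRR) proteins reinforce it, and the late cornified envelope (LCE) proteins are added last. Fused-type S100 proteins such as filaggrin and trichohyalin pack or cross-link keratin filaments, and the small S100A proteins bind calcium and act in signalling and inflammation. H4K20me3, trimethylated lysine 20 of histone H4, is a mark of compact, silent chromatin that the enzymes SUV420H1 and SUV420H2 make from the lower methylation states.

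H4K20me3 was mapped by CUT&RUN, in which an antibody guides a nuclease to the marked nucleosomes and the released DNA is sequenced. All libraries came from HN-SCC-151, a wild-type HPV-negative line of head and neck squamous cell carcinoma, so every result is that of 1 cell line. The inhibitor arm holds 3 libraries of cells given A-196 at 2.5 µM, a small molecule that inhibits SUV420H1 and SUV420H2, and 3 libraries of cells given DMSO. The siRNA arm holds 4 libraries of cells given siRNAs against SUV420H1 (siSUV420H1) and 4 of cells that received siNC, the control siRNAs. Cells were treated for 6 days in both arms and 500000 cells entered each reaction. The design text gives 3 dishes for each condition, so some of the 4 siRNA libraries per group may share a dish, and p-values measure the spread between libraries. Peaks of the inhibitor arm were called against IgG from DMSO cells and those of the siRNA arm against another IgG library with no treatment in its label. RNA and protein were not analysed here, so neither the depletion of SUV420H1 nor the squamous identity of the cells could be checked from these values.

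Each value is the length, in kb, of a gene span plus 2 kb on each side that lay under the broad peaks of a library. A gene was marked where at least 200 bp were covered. The lists hold peak positions only, so sequencing depth is unknown, and a covered length cannot tell a weaker mark in every cell from a mark kept in fewer cells. Across the genome, peaks covered 79.6 to 107 Mb in A-196 libraries and 145 to 153 Mb in DMSO libraries, and 118 to 130 Mb in siSUV420H1 libraries and 183 to 193 Mb in siNC libraries. A-196 replicate 2 stood apart by its number of peaks, 13464 against 8505 and 9798 in the other A-196 libraries, and by marking 18.5% of all coding genes against 10.8% and 11.6%. Counts and shares of called members, genes, start sites and bins are therefore also given without it, a choice made after its peaks were seen.

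Over the complex as a whole, much less of the chromosome lay under H4K20me3 peaks after either treatment. Peaks covered 188, 224 and 255 kb of the 1651 kb in the A-196 libraries, against 737, 683 and 731 kb in the DMSO libraries. The group means were 222 ± 33.5 kb with A-196 and 717 ± 29.6 kb with DMSO (SD, n = 3 each), a difference of -494.7 kb that was -495.5 kb without A-196 replicate 2. In the siRNA arm, peaks covered 176, 148, 163 and 145 kb with siSUV420H1, against 425, 431, 432 and 442 kb with siNC. The means were 158 ± 14.4 kb and 432.5 ± 7.05 kb (SD, n = 4 each), a difference of -274.5 kb. The groups of an arm did not overlap in either case. Set against everything under peaks in a library, the complex held 0.216% to 0.238% of the covered bases with A-196 and 0.466% to 0.505% with DMSO. It held 0.114% to 0.142% with siSUV420H1 and 0.224% to 0.242% with siNC.

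**Figure D1:**
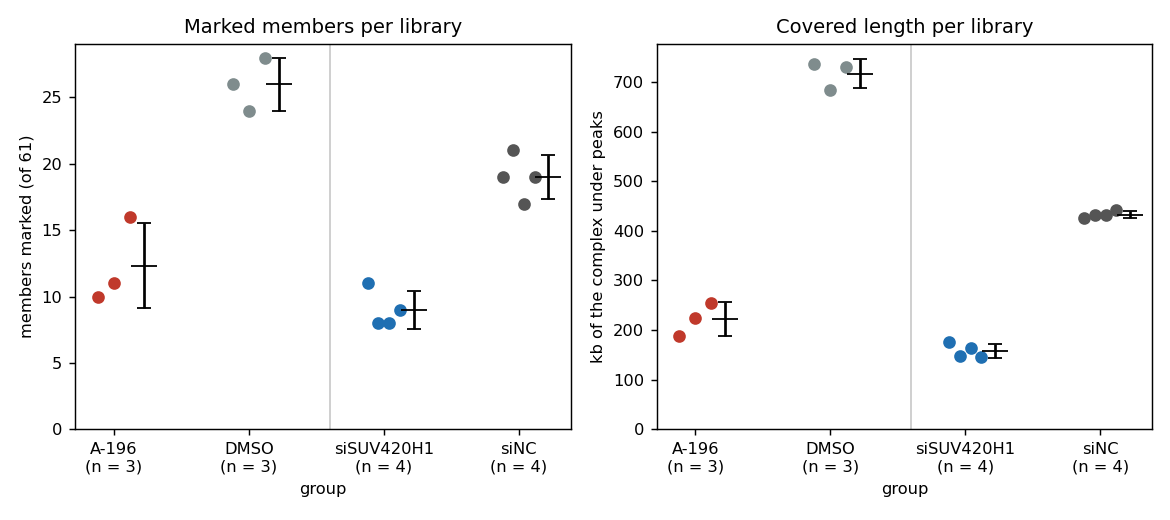
Marked members (left, number of 61) and kb of the complex under H4K20me3 peaks (right) in each library, by group; points are libraries and bars show the mean ± SD. The A-196 libraries (10 to 16 members, 188 to 255 kb) lie below every DMSO library (24 to 28 members, 683 to 737 kb), and the siSUV420H1 libraries (8 to 11 members, 145 to 176 kb) below every siNC library (17 to 21 members, 425 to 442 kb).

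The number of marked members followed the same order. It was 10, 11 and 16 of 61 in the A-196 libraries, against 26, 24 and 28 in the DMSO libraries. Over all coding genes the marked share was 10.8%, 18.5% and 11.6% with A-196, against 12%, 11.6% and 11.9% with DMSO, so there the groups overlapped. With siSUV420H1 it was 11, 8, 8 and 9 members, against 19, 21, 17 and 19 with siNC. The share of all coding genes was 12.3%, 11.5%, 12.1% and 11.5% with siSUV420H1, against 15.8%, 16.4%, 16% and 15.8% with siNC. The widest pieces of the mark were also shorter. The widest peak of the complex measured 15 to 34 kb with A-196 and 177 to 186 kb with DMSO. It measured 25 to 33 kb with siSUV420H1 and 57 to 69 kb with siNC. The median peak width, as a mean over libraries, was 7.33 kb with A-196 and 12.3 kb with DMSO. In the siRNA arm it was 9.25 kb with siSUV420H1 and 9.375 kb with siNC, so the typical peak was about as wide. Peaks of the complex numbered 22.7 with A-196, 29 with DMSO, 14.5 with siSUV420H1 and 30.25 with siNC (means). In DMSO cells, 9 members lay wholly under peaks, flanks included, in every library, and with A-196 there was none. With siNC there were 3 such members and with siSUV420H1 none.

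**Figure D2:**
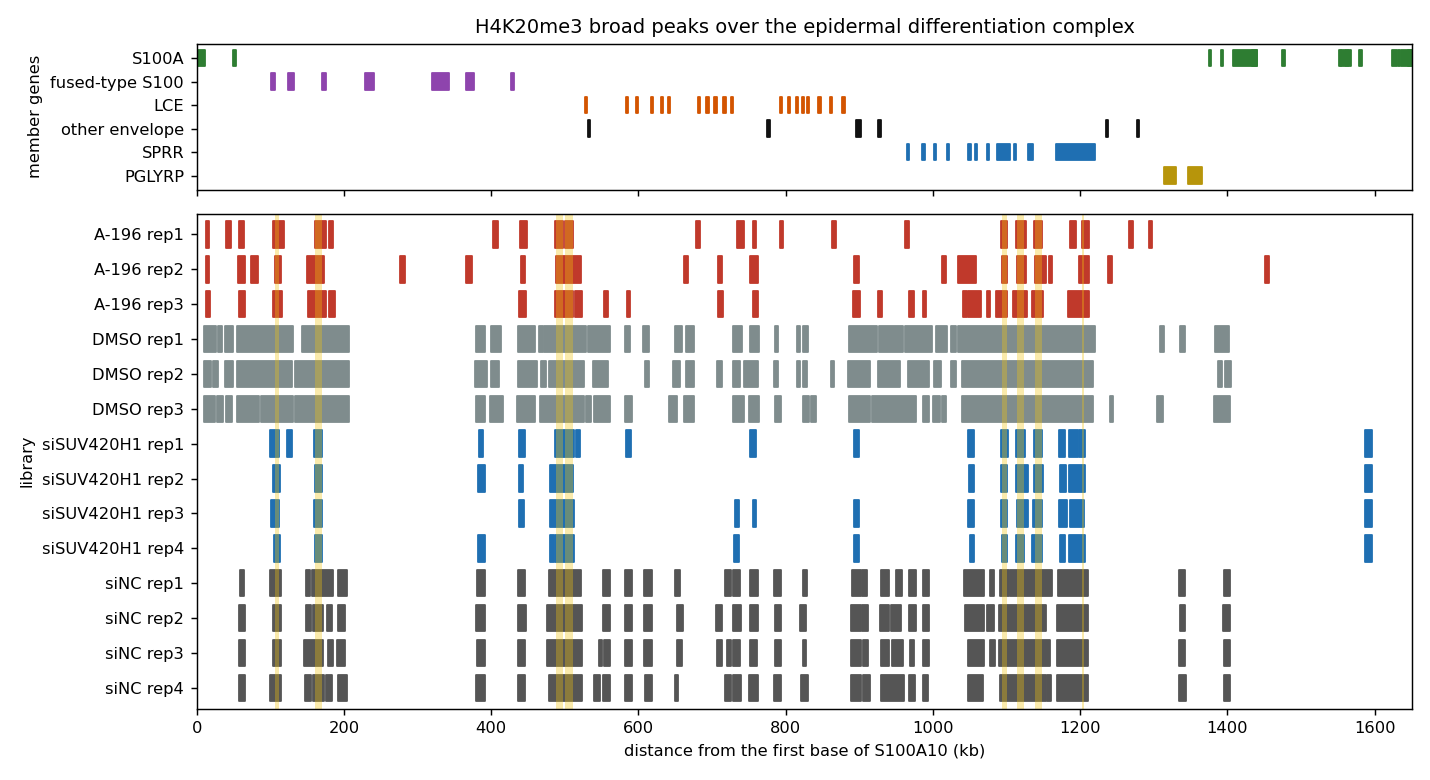
H4K20me3 peaks of the 14 libraries (lower panel, 1 row for each library) over the complex, with the spans of the members by family above; the x axis is the distance from the first base of S100A10 in kb. Yellow bands mark the 8 stretches under a peak in every library. The wide blocks of the DMSO libraries over the left end and over the SPRR genes are broken into short pieces in the A-196 libraries, and the S100A genes at the right end carry few peaks in any library.

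The cluster was not marked evenly. Of the 61 members, 25 were marked in no library, 36 in at least 1, and only TCHHL1, RPTN, SPRR2B and SPRR2G in all 14. Among the unmarked members were several that a skin biologist would look for early: FLG (filaggrin), LORICRIN (loricrin, the most abundant protein of the envelope), and S100A8 and S100A9, which together form calprotectin, had no base under a peak in any of the 14 libraries. Neither had HRNR, CRNN or KPRP. The 200 bp threshold decided few calls: SPRR5 with 0.255 kb in 1 A-196 library and 3 siNC libraries lay just inside it, and LCE5A with 0.198 kb in 1 DMSO library lay just outside.

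After A-196, 6 members were lost, that is, marked in every DMSO library and in no A-196 library: S100A11, TCHH, LCE1C, LCE1B, SPRR1A and S100A12. They are 17.6% of the 34 members marked in any library of the arm, against 6.29% of all 5613 such genes. Of the 20 members that all DMSO libraries marked they are 30%, against 18% of all such genes. Another 5 of the 20 (25%) stayed marked in every A-196 library, against 45.2% of all such genes. None was gained, against 2.87% of all genes marked in any library. For 17 members each A-196 library had a shorter covered length than all DMSO libraries, 50% of those marked in any library against 19.5% of all such genes. No member was higher in this sense, against 3.87%. Over the 34 members with a peak in the arm the median difference was -2.63 kb, and 29 of them had a lower mean with A-196. Over all 5659 coding genes with a peak it was 1.12 kb, with 2182 lower. Over the genes marked in every DMSO library alone, the median was -3.89 kb (-70.2%) for the 20 members and -5 kb (-58.6%) for all 1958 such genes.

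Without A-196 replicate 2, the shares of members lost, kept and lower stood closer to those of all genes. The shares gained and higher stood further apart. The 6 lost members were then 18.2% of 33 marked in any library, against 11.2% of all 4011 such genes, and 30% of those marked in every DMSO library, against 23%. Of these 20 members, 8 (40%, against 54.3% of all such genes) stayed marked in both remaining A-196 libraries. In this setting 19 members were lower (57.6%, against 29.9% of all genes) and 0 were gained or higher, against 5.16% and 8.3%. The medians over genes with a peak were -2.76 kb for 33 members and -0.58 kb for 4041 genes, and over those marked in every DMSO library -3.5 kb for members and -4.67 kb for all genes.

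With 3 libraries against 3, the exact two-sided permutation test cannot give a p below 0.1, so no member could pass: 0 of 34 had an unadjusted p under 0.05, and the smallest p adjusted over the 5659 genes with a peak was 0.431. limma on log2(kb + 1) called 6 members lower (S100A10, S100A11, TCHH, LCE1C, LCE1B and S100A12; 17.6% of members with a peak against 8.11% of all genes) and none higher, against 2.86%. Without A-196 replicate 2 it called 9 lower (27.3%, against 15.3% of all genes) and 0 higher (against 5.35%). The count of lower members depended on the flank, with 11 for gene spans alone and 33 with 10 kb flanks. The shares of all coding genes at these flanks are not given here, so these counts are no result about the complex.

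After siSUV420H1, 7 members were lost: LCE3C, LCE4A, LCE1F, LCE1C, LCE1B, IVL and SPRR4. They are 30.4% of the 23 members marked in any library of the arm, against 15% of all 3959 such genes. Among the 17 that all siNC libraries marked, they are 41.2%, against 21.5%. Another 7 of the 17 (41.2%) stayed marked in every siSUV420H1 library, against 64.1% of all such genes. None was gained, against 1.72%. In total 16 members were lower in each siSUV420H1 library than in all siNC libraries, 69.6% against 33.7% of all genes marked in any library, and none was higher, against 10.4%. Over the 23 members with a peak in the arm the median difference was -2.77 kb, and 22 of them had a lower mean with siSUV420H1. Over all 3985 coding genes with a peak it was -1.25 kb, with 2586 lower. Over the genes marked in every siNC library alone, it was -3.69 kb (-81.6%) for the 17 members and -2.5 kb (-31.3%) for all 2754 such genes.

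These 16 members each reached 0.0286, the smallest p that the exact two-sided permutation test allows with 4 libraries against 4. They are 69.6% of the members with a peak, against 43.9% of all 3985 genes with a peak that had an unadjusted p under 0.05. Adjusted over those genes the p became 0.065 for each, so 0 of the members passed the threshold of 0.05. limma on log2(kb + 1) called 16 members lower (69.6%, against 37% of all genes) and none higher (against 12.2%). The 2 sets of 16 differ. limma did not call SMCP (limma adjusted p = 0.245). It called SPRR5 (limma adjusted p = 0.0408), which had 0.255 kb in 3 siNC libraries and an exact p of 0.143. With 10 kb flanks, 18 members were lost, 32 were lower, and S100A2 was gained and higher. The share of all coding genes called with these flanks is not given here, so the counts show only how the calls depend on the flank.

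**Figure D3:**
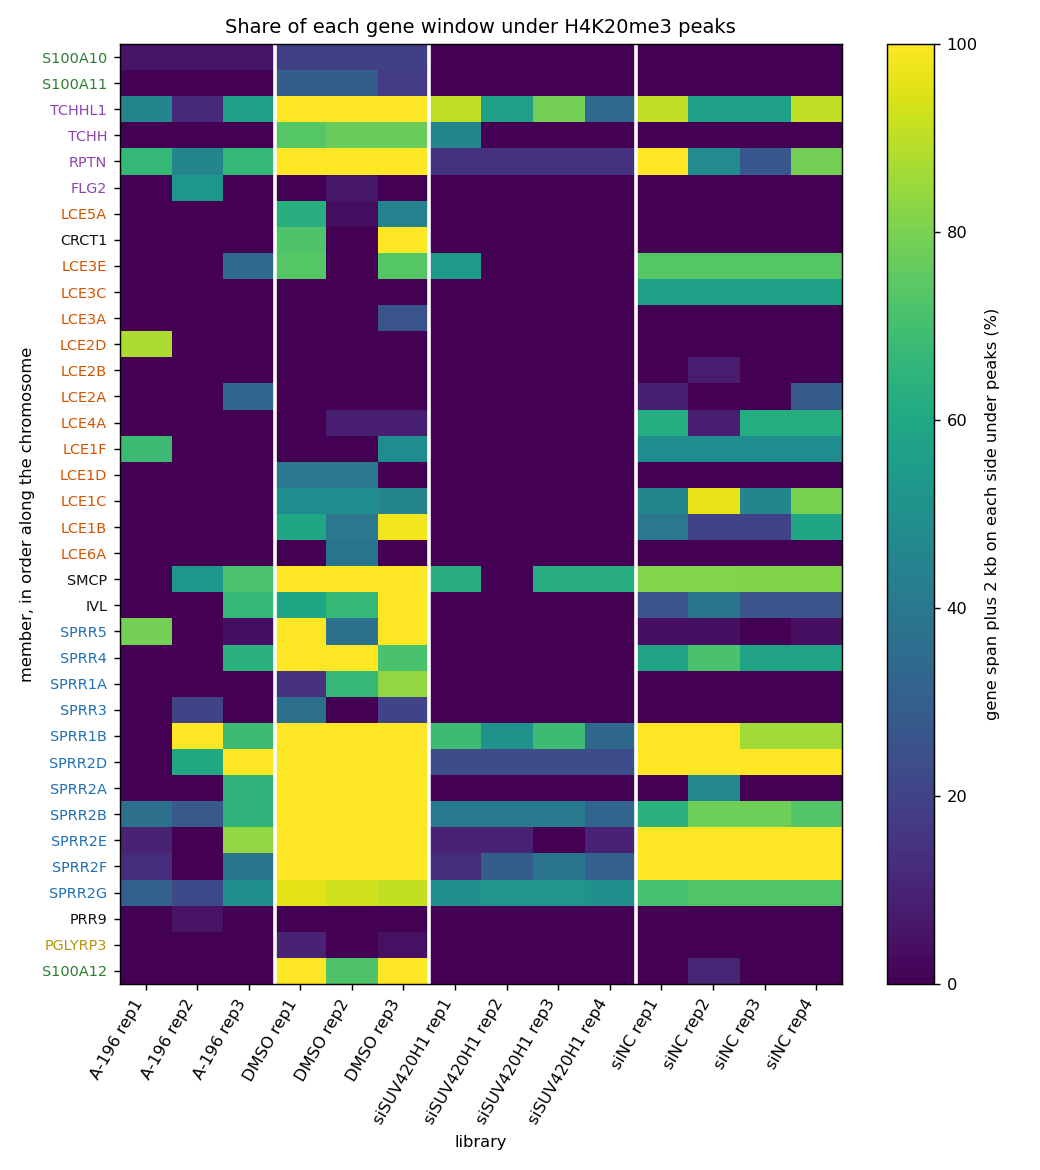
Share of each gene window (span plus 2 kb on each side) under H4K20me3 peaks, in percent, for the 36 members marked in any library (rows, in order along the chromosome, names coloured by family) in the 14 libraries (columns, A-196, DMSO, siSUV420H1, siNC). Most of the SPRR rows are full in DMSO and partly empty in A-196, and the LCE rows are empty in nearly all siSUV420H1 libraries.

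Few S100A genes were marked. Of the 16, 13 were marked in no library, and the 3 others (S100A10, S100A11 and S100A12) carried the mark mainly in DMSO cells. S100A12, a calgranulin of neutrophils, had 0 kb in each A-196 library, against 5.91, 4.29 and 5.91 kb in the DMSO libraries (exact p = 0.1, adjusted p = 0.431). With siSUV420H1 it had 0 kb in each library, against 0, 0.621, 0 and 0 kb with siNC. S100A11, a calcium-binding protein that is itself found in the cornified envelope, had 0, 0.004 and 0 kb with A-196, against 2.5, 2.5 and 1.5 kb with DMSO (exact p = 0.1, adjusted p = 0.431), and 0 kb in every library of the siRNA arm. S100A10, the partner of annexin A2, kept 0.859 kb in each A-196 library, against 2.86 kb in each DMSO library, and had none in the siRNA arm. In all 3 genes the mark of the DMSO libraries thus stood above that of every A-196 library.

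The fused-type S100 genes divide by position. TCHHL1, TCHH and RPTN at the left end were marked, while HRNR, FLG and CRNN were not, and FLG2 was marked in 1 A-196 and 1 DMSO library. TCHH encodes trichohyalin, which hardens the inner root sheath of the hair follicle. It had 0 kb in each A-196 library, against 9.68, 10.1 and 10.1 kb with DMSO (exact p = 0.1, adjusted p = 0.431). TCHH had 6 kb in siSUV420H1 replicate 1 and 0 kb in the 3 other siSUV420H1 libraries, against 0 kb in every siNC library. RPTN encodes repetin, a minor envelope precursor. It had 6.41, 4.41 and 6.41 kb with A-196, against 9.63 kb in each DMSO library, which is its whole window (exact p = 0.1, adjusted p = 0.431). With siSUV420H1 RPTN had 1.41 kb in each library, against 9.63, 4.63, 2.63 and 7.63 kb with siNC (exact p = 0.0286, adjusted p = 0.065). Its groups did not overlap in either arm. TCHHL1, a trichohyalin-like gene, had 4.06, 1.06 and 5.06 kb with A-196, against 8.92 kb in each DMSO library. In the siRNA arm its groups overlapped, with 8.06, 5.06, 7.06 and 3.06 kb for siSUV420H1, against 8.06, 5.06, 5.06 and 8.06 kb for siNC (exact p = 0.743, adjusted p = 0.93).

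The LCE genes held short patches of the mark between long unmarked stretches, and these patches were nearly all absent after siSUV420H1. Marked LCE genes numbered 2, 0 and 2 of 19 with A-196, against 5, 5 and 7 with DMSO, and 1, 0, 0 and 0 with siSUV420H1, against 7, 7, 6 and 7 with siNC. Of the 6 marked in every siNC library, 5 were lost, against 21.5% of all genes so marked. Only LCE1C and LCE1B were lost in both arms, and they are neighbours under the same peak in each of the 7 libraries that marked them. LCE1C had 0 kb in each A-196 library, against 2.82, 2.82 and 2.65 kb with DMSO (exact p = 0.1, adjusted p = 0.431). It had 0 kb in each siSUV420H1 library, against 2.65, 5.65, 2.65 and 4.65 kb with siNC (exact p = 0.0286, adjusted p = 0.065). LCE1B had 0 kb in each A-196 library, against 3.03, 2.03 and 5.03 kb with DMSO, and 0 kb in each siSUV420H1 library, against 2.03, 1.03, 1.03 and 3.03 kb with siNC. These calls rested on narrow peaks: with peaks below the median width of an arm left out, LCE1C and LCE1B were lost in neither arm.

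Further LCE genes were lost in the siRNA arm alone. LCE3C, of the LCE3 group known for a common deletion linked to psoriasis, had 0 kb in each siSUV420H1 library, against 2.77 kb in each siNC library (exact p = 0.0286, adjusted p = 0.065), and 0 kb in all libraries of the inhibitor arm. LCE1F had 0 kb in each siSUV420H1 library, against 2.86 kb in each siNC library. With A-196 it had 4.02, 0 and 0 kb, against 0, 0 and 2.86 kb with DMSO, so the groups of that arm overlapped. LCE4A had 0 kb in each siSUV420H1 library, against 3.27, 0.434, 3.27 and 3.27 kb with siNC. In the inhibitor arm LCE4A had 0 kb with A-196, against 0, 0.434 and 0.434 kb with DMSO. The loss of a call in one arm and not in the other was not tested as a difference between the arms.

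Among the other envelope genes, IVL encodes involucrin, the early scaffold of the envelope. It had 0 kb in each siSUV420H1 library, against 1.89, 2.89, 1.89 and 1.89 kb with siNC (exact p = 0.0286, adjusted p = 0.065), and this call ended for the gene span alone. With A-196 IVL had 0, 0 and 4.89 kb, against 4.34, 4.89 and 7.34 kb with DMSO, so A-196 replicate 3 lay within the range of DMSO (exact p = 0.3, adjusted p = 0.905). SMCP, a cysteine-rich protein of sperm mitochondria, was lower without overlap in both arms: 0 to 7.68 kb with A-196, against 10.7 kb in each DMSO library, and 0 to 6.68 kb with siSUV420H1, against 8.68 to 8.73 kb with siNC. CRCT1 had a peak in 2 DMSO libraries only, with 4.01 and 5.53 kb, and PRR9 only 0.31 kb in A-196 replicate 2. PGLYRP3, a peptidoglycan recognition protein, had 1.89 and 0.885 kb in 2 DMSO libraries and none elsewhere. PGLYRP4 carried no peak.

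The SPRR genes were the most marked family, with 11, 10 and 11 of 11 marked in the DMSO libraries, against 5, 5 and 9 in the A-196 libraries. The siSUV420H1 libraries marked 6, 6, 5 and 6 of them, against 8, 9, 7 and 8 in the siNC libraries. In each arm 7 of the 11 were lower without overlap, against 19.5% of all genes marked in any library of the inhibitor arm and 33.7% in the siRNA arm. In the siRNA arm the 11 include SPRR1A and SPRR3, which had no peak there, while the share of all genes leaves such genes out. SPRR1A was the member lost with A-196: it had 0 kb in each A-196 library, against 0.814, 3.81 and 4.81 kb with DMSO (exact p = 0.1, adjusted p = 0.431), and 0 kb throughout the siRNA arm. SPRR4 was the member lost with siSUV420H1: it had 0 kb in each library, against 4.57, 5.57, 4.57 and 4.57 kb with siNC (exact p = 0.0286, adjusted p = 0.065). With A-196 SPRR4 had 0, 0 and 5 kb, against 7.82, 7.82 and 5.57 kb with DMSO.

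No member of the SPRR2 group was lost in either arm, and the covered lengths of SPRR2B, SPRR2E, SPRR2F and SPRR2G were shorter in both. SPRR2G, whose annotated span is the longest of the members, had 18, 13 and 29 kb with A-196, against 55.4, 53.4 and 52.4 kb with DMSO (exact p = 0.1, adjusted p = 0.431). It had 29, 30, 30 and 29 kb with siSUV420H1, against 41, 42, 42 and 42 kb with siNC (exact p = 0.0286, adjusted p = 0.065). SPRR2B had 8, 6 and 14 kb with A-196, against 21.6 kb in each DMSO library, and 9, 9, 9 and 7 kb with siSUV420H1, against 13.8, 16.8, 16.8 and 15.8 kb with siNC. SPRR2F had 1.47, 0 and 4.35 kb with A-196, against its whole window of 11.3 kb in each DMSO library. With siSUV420H1 SPRR2F had 1.47, 3.35, 4.35 and 3.47 kb, against 11.3 kb in each siNC library (exact p = 0.0286, adjusted p = 0.065). In each of these 3 genes the groups did not overlap in either arm.

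The stretch from SPRR1B to SPRR2G shows how a domain changed shape. In each DMSO library a single peak spanned the 177 kb of chr1:153023001-153200000 (hg38), a stretch picked after its peaks were seen. With A-196 the peaks there numbered 5 to 7 and covered 51, 69 and 103 kb of it. With siSUV420H1 there were 6 or 7 peaks over 69, 74, 74 and 66 kb, against 4 or 5 peaks over 142, 140, 140 and 130 kb with siNC. The means were 74.3 ± 26.4 kb with A-196 and 177 kb with DMSO (n = 3 each), and 70.8 ± 3.95 kb with siSUV420H1 and 138 ± 5.42 kb with siNC (SD, n = 4 each). Part of what remained lay at places shared by all libraries, and the rest at places that not every library covered. In all 14 libraries peaks covered the same 6 kb within SPRR2B and 10 kb between SPRR2E and SPRR2F. They also covered the same 9 kb between SPRR2F and SPRR2G and 2 kb within SPRR2G.

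**Figure D4:**
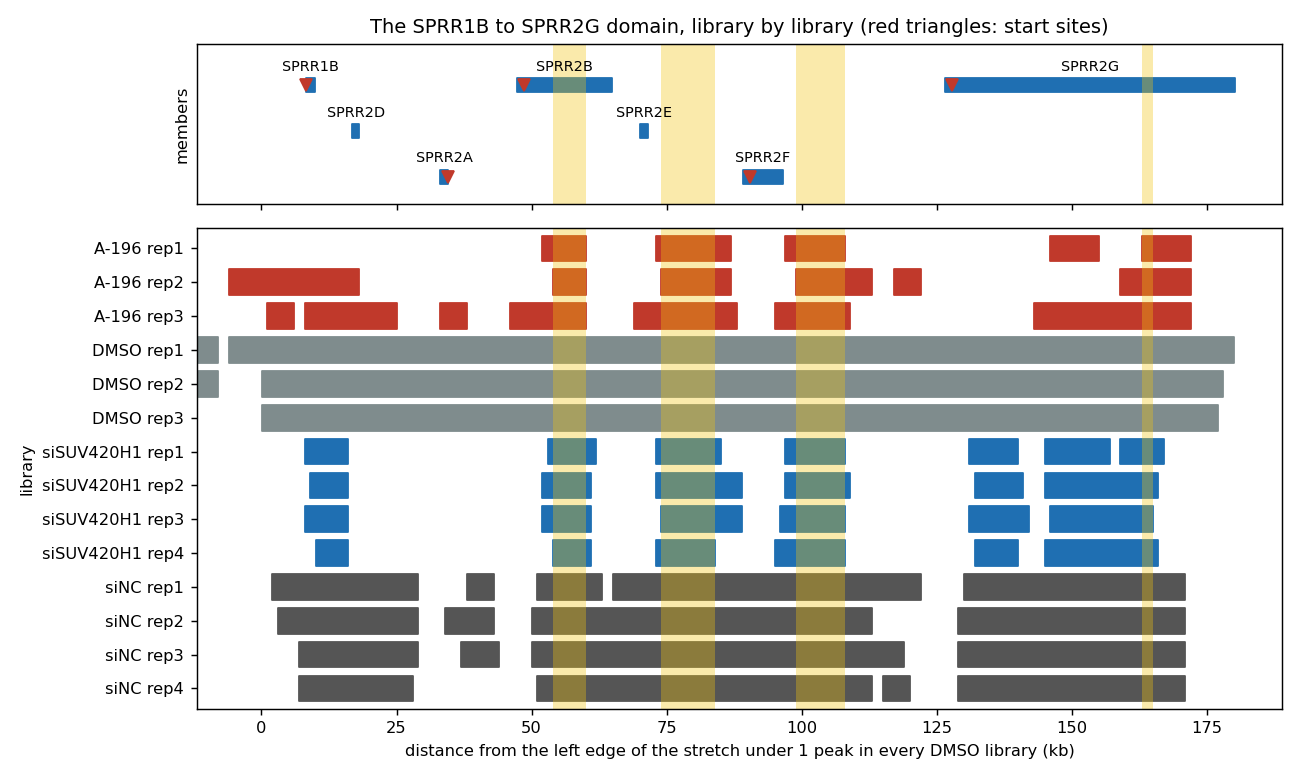
Peaks over the SPRR1B to SPRR2G stretch in each library (lower panel) below the members' spans, with red triangles at start sites; the x axis is the distance in kb from the left edge of the 177 kb that 1 peak covers in every DMSO library. Yellow bands are the stretches covered in all 14 libraries. The A-196 libraries keep 51 to 103 kb and the siSUV420H1 libraries 66 to 74 kb, inside and outside the bands, and no band holds a start site.

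Over the whole complex there were 8 such stretches, of 2 to 11 kb and 63 kb in total, and none held the start site of a member. Of the 8, 6 lay outside every coding span. The longest pair, 10 and 11 kb (chr1:152471001-152481000 and chr1:152483001-152494000), lies between CRNN and LCE5A, with its near edge 16.8 kb from the start of LCE5A. In 1 kb bins, 588 bins of the complex lay under peaks in every DMSO library, and 291 of them (49.5%) in no A-196 library, against 36.1% of such bins genome-wide. Another 100 (17%, against 26.2%) stayed under peaks in every A-196 library. In the siRNA arm 361 bins lay under peaks in every siNC library, 175 of them (48.5%, against 32.1%) in no siSUV420H1 library, and 100 (27.7%, against 49.8%) in every one. Bins lost in both arms added up to 76 kb in 22 stretches. They are 26.1% of the bins lost with A-196 and 43.4% of those lost with siSUV420H1, against 26.8% and 24.2% genome-wide. No bin was gained with A-196, against 0.694% of bins genome-wide, and 9 bins were gained with siSUV420H1 (1.74% of bins under any peak of the arm, against 1.51%). Without A-196 replicate 2, 323 bins (54.9%, against 38.7%) were lost, 130 (22.1%, against 36.7%) stayed and 0 were gained, against 2.03%.

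Counted as domains, that is, all peaks of an arm merged, 4 of the 18 domains present in every DMSO library were absent from every A-196 library (22.2%, against 27.2% genome-wide). That count was 8 without A-196 replicate 1, 8 without DMSO replicate 3, and 6 without A-196 replicate 2. The genome-wide shares of these runs are not given here, so their counts show only how the call depends on single libraries. The 4 lay beside FLG2 and LCE3A and over LCE1C with LCE1B and S100A12. Of 25 domains present in every siNC library, 13 were absent from every siSUV420H1 library (52%, against 32.2%). The longest, 33 kb from the end of IVL towards SPRR5 (chr1:152911001-152944000), held 26.2 ± 5.38 kb of peaks with siNC (SD, n = 4) and none with siSUV420H1. A single domain of the complex was gained with siSUV420H1 (3.23% of its 31 domains in the arm, against 1.4%). With A-196 none was gained, against 1.2%. This siRNA domain of 10 kb (chr1:153570001-153580000), 4.16 kb upstream of the start site of S100A2, which is read from the minus strand, was present in 4 of 4 siSUV420H1 libraries and 0 of 4 siNC libraries.

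Peaks also lay over fewer start sites of members. RefSeq start sites were found for 57 of the 61 members, and not for CRCT1, LCE1B, SPRR2D and SPRR2E. Peaks lay over 4, 2 and 6 of the 57 with A-196, against 16, 13 and 17 with DMSO (3.51% to 10.5%, against 22.8% to 29.8%). Of all 15842 start sites, 2.35%, 3.09% and 3.19% lay under peaks with A-196, against 4.51%, 3.91% and 4.31% with DMSO. In the siRNA arm peaks lay over 4, 1, 3 and 2 members' start sites with siSUV420H1, against 11, 10, 10 and 11 with siNC. The shares of all start sites there were 2.87%, 2.56%, 2.85% and 2.61% with siSUV420H1, against 3.67%, 3.62%, 3.61% and 3.53% with siNC. Of the 12 under a peak in every DMSO library, those of S100A10, RPTN, LCE1C, SPRR2F, SPRR2G and S100A12 were under none with A-196 (50%, against 37.3% of such start sites genome-wide). None of the 12 stayed under a peak in every A-196 library, against 31.8% genome-wide. Without A-196 replicate 2 the same 6 were lost (50%, against 39.1%) and TCHHL1 stayed (8.33%, against 41.2%). Of the 9 under a peak in every siNC library, those of LCE3C, LCE1F, LCE1C, SPRR4 and SPRR2F were under none with siSUV420H1 (55.6%, against 29.7%). TCHHL1 was the only one that stayed under a peak in every siSUV420H1 library (11.1%, against 56.3%).

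The 250 bases upstream of the start site (RefSeq, GRCh38.p14, 5′ to 3′ on the strand of the gene) are shown for 2 start sites that lost the mark in both arms (LCE1C and SPRR2F), 2 that lost it with A-196 (SPRR2G and S100A12) and 2 that lost it with siSUV420H1 (LCE3C and SPRR4), picked after their values were seen. Capitals mark 3 motifs: the AP-1 site TGAGTCA and the CACCC box CCACCC (or GGGTGG, its other strand), searched on both strands, and the TATA box TATAAA, searched on the sense strand. LCE1C lies at chr1:152806652-152806901 (minus strand), SPRR2F at chr1:153113517-153113766 (minus), SPRR2G at chr1:153150891-153151140 (minus), S100A12 at chr1:153375622-153375871 (minus), LCE3C at chr1:152599984-152600233 (plus) and SPRR4 at chr1:152970398-152970647 (plus).
LCE1C: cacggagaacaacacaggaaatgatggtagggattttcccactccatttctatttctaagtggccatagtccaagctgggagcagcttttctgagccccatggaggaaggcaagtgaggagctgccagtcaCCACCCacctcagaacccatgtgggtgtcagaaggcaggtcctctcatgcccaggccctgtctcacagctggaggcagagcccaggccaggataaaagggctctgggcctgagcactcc
SPRR2F: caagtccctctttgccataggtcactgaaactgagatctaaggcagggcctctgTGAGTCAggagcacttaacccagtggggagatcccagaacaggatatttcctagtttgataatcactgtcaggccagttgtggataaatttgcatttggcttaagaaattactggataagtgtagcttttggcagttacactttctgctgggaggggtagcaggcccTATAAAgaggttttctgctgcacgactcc
SPRR2G: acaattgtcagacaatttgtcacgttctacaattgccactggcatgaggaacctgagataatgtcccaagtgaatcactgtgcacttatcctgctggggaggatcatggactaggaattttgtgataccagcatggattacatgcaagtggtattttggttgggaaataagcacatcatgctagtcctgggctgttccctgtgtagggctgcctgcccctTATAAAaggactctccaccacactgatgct
S100A12: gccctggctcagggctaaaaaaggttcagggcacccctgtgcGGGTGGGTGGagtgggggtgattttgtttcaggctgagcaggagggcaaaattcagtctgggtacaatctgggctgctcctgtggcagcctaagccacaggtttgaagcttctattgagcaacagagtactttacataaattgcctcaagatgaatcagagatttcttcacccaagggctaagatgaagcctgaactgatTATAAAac
LCE3C: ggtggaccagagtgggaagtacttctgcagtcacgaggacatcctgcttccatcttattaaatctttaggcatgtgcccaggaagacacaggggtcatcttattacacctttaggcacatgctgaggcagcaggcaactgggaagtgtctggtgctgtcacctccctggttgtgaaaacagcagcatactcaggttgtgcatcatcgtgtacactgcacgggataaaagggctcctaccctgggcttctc
SPRR4: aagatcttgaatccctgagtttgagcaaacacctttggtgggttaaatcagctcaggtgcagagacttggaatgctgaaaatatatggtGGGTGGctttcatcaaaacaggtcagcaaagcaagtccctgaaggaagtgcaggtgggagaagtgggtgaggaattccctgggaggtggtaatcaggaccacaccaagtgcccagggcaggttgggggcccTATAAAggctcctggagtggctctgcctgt

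The SPRR2F window holds an AP-1 site and a TATA box, that of SPRR2G a TATA box, that of SPRR4 a CACCC box and a TATA box, and that of LCE1C a CACCC box. In S100A12 a pair of overlapping CACCC boxes on the other strand stands beside a TATA box, and the LCE3C window holds none of the 3 motifs. Over the 57 member windows, the AP-1 site was found in 10 (17.5%, against 3.17% of all 15842 windows), the TATA box in 30 (52.6%, against 6.66%) and the CACCC box in 26 (45.6%, against 34.3%). These are matches of letters, not sites shown to be used. In global alignments with gaps allowed, 26 pairs of windows within the SPRR2, LCE1 and LCE3 groups shared 42% to 86.4% of the 250 bases (median 59.4%). LCE1B, SPRR2D and SPRR2E had no window and are in no pair. The identity of unrelated windows is not given here, so the low values cannot be read as shared sequence. The highest pair was SPRR2A with SPRR2F and the lowest LCE1D with LCE1A, while LCE1D and LCE1C shared 76% and SPRR2F and SPRR2G 58%. The start sites of SPRR2A and SPRR2F were under a peak in every DMSO library, while that of LCE1D was under none, unlike that of its neighbour LCE1C.

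By position, the members were split into 5 runs after the peaks were seen, and mean covered length was lower in each of the 5 with A-196 and with siSUV420H1. From S100A10 to RPTN, peaks covered 51 ± 2 kb with A-196 and 145 ± 3.06 kb with DMSO (SD, n = 3 each), and 22.2 ± 4.79 kb with siSUV420H1 and 43.4 ± 2.61 kb with siNC (SD, n = 4 each). From SMCP to SPRR2G they covered 88.1 ± 34.6 kb with A-196 and 286 ± 17.8 kb with DMSO, and 74.3 ± 3.3 kb with siSUV420H1 and 194 ± 3.79 kb with siNC. The change relative to the control in these runs was -64.7% and -69.2% with A-196, and -48.7% and -61.8% with siSUV420H1. In the LCE run, from LCE5A to LCE7A, it was -76.8% with A-196 (25.3 ± 4.51 kb, against 109 ± 6.5 kb with DMSO) and -90.8% with siSUV420H1 (7.75 ± 6.34 kb, against 84 ± 4.97 kb with siNC). The runs from HRNR to CRNN and from PRR9 to S100A1 held at most 15 kb in any A-196 library and 34 kb in any DMSO library, and at most 10 kb in any siSUV420H1 library and 19 kb in any siNC library.

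The arms share no library, and their controls differed over the complex. TCHH, S100A10, S100A11 and SPRR1A were marked in every DMSO library and in no siNC library, while LCE3C was marked in every siNC library and in no DMSO library. The mean Jaccard index of the covered bases of the complex, which is 1 for identical peaks, was 0.526 between DMSO and siNC libraries, 0.79 among DMSO libraries and 0.834 among siNC libraries. The arms used different IgG libraries and different handling (DMSO or transfection), and these cannot be told apart. Between A-196 and siSUV420H1 libraries the index was 0.361, against 0.402 among the A-196 libraries and 0.716 among the siSUV420H1 libraries. The lost lists of 6 members with A-196 and 7 with siSUV420H1 share LCE1C and LCE1B, 33.3% and 28.6% of each list. Over all coding genes the lost lists of 353 and 593 share 99, 28% and 16.7%. The lists of lower members, 17 and 16, share 9 (52.9% and 56.2%): RPTN, LCE1C, LCE1B, SMCP, SPRR4, SPRR2B, SPRR2E, SPRR2F and SPRR2G. Over all coding genes, the lists of 1093 and 1336 lower genes share 591, 54.1% and 44.2%. These overlaps were not tested.

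Genes outside the complex serve the same programme. Of 45 listed genes (transglutaminases, keratins, desmosomal, lipid and protease genes and regulators of keratinocyte differentiation), 17 were marked in any library of the inhibitor arm and 10 in any library of the siRNA arm. With A-196, 3 of the 17 were lost (DSP, DSG1 and DSC1, which encode desmosomal proteins; against 6.29% of all genes marked in any library). Another 4, or 7 with the lost ones, were lower without overlap, against 19.5%, and none was gained or higher, against 2.87% and 3.87%. Of the 17, 5 (KRTDAP, DMKN, PADI1, GRHL3 and NOTCH1) were marked in A-196 replicate 2 alone. Without that library 12 were marked and the same 3 were lost (25%, against 11.2% of all genes marked in any library). In that run 7 were lower (58.3%, against 29.9%). CERS3, a ceramide synthase of the epidermis, was gained and higher there (8.33% of the 12, against 5.16% gained and 8.3% higher). Without A-196 replicate 3, 5 were lost. The lost call of DSP ended at a smallest overlap of 1000 bp and for gene spans alone. That of DSC1 ended with peaks below the median width of the arm left out. With siSUV420H1, 2 of the 10 were lost (DSG1 and SPINK5, an inhibitor of skin proteases; against 15% of all genes marked in any library), 7 were lower, against 33.7%, and none was gained or higher, against 1.72% and 10.4%. In the siRNA arm the lost call of SPINK5 ended with 10 kb flanks. Those of SPINK5 and DSG1 ended with peaks below the median width of the arm left out. DSG1, the desmosomal cadherin of the upper epidermis, had 0 kb in each A-196 library, against 9.25, 7.25 and 12.2 kb with DMSO. It had 0 kb in each siSUV420H1 library, against 4.25, 3.25, 4.25 and 4.25 kb with siNC. TP63, the regulator that sets epidermal identity, had 68.3, 57.3 and 110 kb with A-196, against 234, 229 and 203 kb with DMSO. It had 58.3, 55.3, 50.3 and 52.3 kb with siSUV420H1, against 117, 125, 126 and 127 kb with siNC.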

How the data were processed

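H4K20me3 CUT&RUN libraries of HN-SCC-151 cells were grouped by title (3 A-196, 3 DMSO, 4 siSUV420H1, 4 siNC). Of the 24 samples in the series, 10 (IgG, H3K4me3 and H3K27me3) were not used here. The authors deposited 1 list of broad peaks for each library, with starts and ends in base pairs and no count, score or p-value. Per the submitters' processing notes they used hg38, cutadapt 4.4, Bowtie, Picard 2.27.3 and bedtools 2.30.0; the peak caller is not given in the sources used here. Per the labels of the deposited lists, duplicates were removed and each library was called alone against 1 IgG library. Peak ends lay on a grid of 1000 bp, the narrowest peak was 5 kb and the smallest gap 2 kb, so finer changes are not visible, and depth differences between libraries can move what was called.

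Gene spans came from RefSeq (GRCh38; 190 of 20056 coding symbols lay off the primary chromosomes and were left out). Spans with their 2 kb flanks can share a peak, so the marks of close neighbours cannot be told apart. Start sites and promoters were the first RefSeq entry of a gene. Covered kb per gene was compared within an arm by exact two-sided permutation tests with Benjamini-Hochberg adjustment over all genes with a peak (threshold 0.05). limma 3.58.1 (R 4.3.3, pseudocount 1 kb) was an alternative, as were the flank, the smallest overlap, the peaks used, single libraries left out and the replicate block. Scripts ran in Python 3.11.15 and were tested on simulated data. Members given in full were those lost or gained, in each arm the 3 others with the largest fall without overlap, those marked in all libraries, and FLG, IVL, LORICRIN, S100A8 and S100A9; further genes were named after their values were seen. The members and all lists were chosen with earlier results of these data known.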

Additional observations from a re-analysis of the deposited data

Results flagged for a closer look

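Among the 19 groups of 4 libraries of the members given in full, 7 held a library whose covered length lay far from the other 3. In each case the 3 others agree to the base. The usual rate of about 1 in 20 by chance is that of continuous values and does not hold on a 1 kb grid, where a single step apart from 3 equal libraries is enough. TCHH had 6 kb in siSUV420H1 replicate 1 and 0 kb in the 3 other siSUV420H1 libraries. SPRR2B had 7 kb in siSUV420H1 replicate 4, against 9 kb in each of the others. In siNC replicate 2, LCE4A had 0.434 kb where the others had 3.27 kb, IVL 2.89 kb where they had 1.89 kb, SPRR4 5.57 kb where they had 4.57 kb, and S100A12 0.621 kb where they had 0 kb. SPRR2G had 41 kb in siNC replicate 1, against 42 kb in each of the others. The gaps of IVL, SPRR4, SPRR2G and S100A12 come from a peak edge that lies 1 step of the grid away.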

How the results depend on the processing

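The lower covered length of the complex and the lower number of marked members kept their direction under each alternative run. With 10 kb flanks the difference in marked members was -18.3 with A-196 and -22.2 with siSUV420H1. In the siRNA arm 18 members were then lost, 32 lower, 1 gained, 1 higher and 4 listed genes outside the complex lost. With A-196, 33 were lower, against 11 for gene spans alone. Apart from the run without A-196 replicate 2, counts of the alternative runs stand without the share over all genes. Domain counts stand without a genome-wide share in every alternative run, that one included. Such counts show only how the calls depend on the setting. With peaks below the median width of an arm left out, 9 domains were lost with A-196, and the siRNA difference was -249.5 kb. Leaving out single libraries gave 4 to 8 lost domains, 6 to 9 lost members and 3 to 5 lost genes outside the complex with A-196, and 7 to 8 lost members with siSUV420H1. Of the lost calls of members, only that of LCE3C was met under each of the alternatives. In the inhibitor arm S100A11, LCE1B and SPRR1A ended for gene spans alone, and S100A11 and TCHH with 10 kb flanks. S100A11 also ended at a smallest overlap of 1 bp, SPRR1A at 1000 bp, and LCE1C, LCE1B and S100A12 among the wider peaks. In the siRNA arm LCE4A, LCE1B and IVL ended for gene spans alone, LCE4A also with 10 kb flanks or a smallest overlap of 1000 bp, and LCE1F, LCE1C, LCE1B and SPRR4 among the wider peaks. The cause was not tested. LCE1F with A-196, at 0.388 kb above DMSO, turned to -4.67 kb with 10 kb flanks, to -0.954 kb among the wider peaks, and over single libraries left out it ran from -0.954 kb (without A-196 replicate 1) to 1.34 kb, with -0.0892 kb without DMSO replicate 1 or 2. Over single libraries left out, TCHHL1 with siSUV420H1 ran from -1.5 to 0.167 kb, the latter without siSUV420H1 replicate 4. It was -2.5 kb with 10 kb flanks and -1.52 kb among the wider peaks. Of 480 such values of the 20 members given in full, 404 moved by less than the spread between libraries. That count includes members that could move in few settings. FLG, LORICRIN, S100A8 and S100A9 had no base under a peak in any library. LCE3C had none in the inhibitor arm, and S100A11 and SPRR1A none in the siRNA arm. The count therefore says little about stability.

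Chosen after the data were seen, limma without A-196 replicate 2 called 9 members. With all libraries, limma called 6 members with A-196 and 16 with siSUV420H1 without a replicate block. With the replicate block it called 2 and 13, and the share of all genes called under the block is not given here. The exact sign-flip test over same-numbered pairs called 0 in both arms, where it could call none. Its smallest p is 0.25 with 3 pairs and 0.125 with 4. The mean differences over pairs, in covered length of the complex, were -494.7 and -274.5 kb. Deviations of same-numbered libraries correlated at -0.101, -0.00669 and -0.14 in the inhibitor arm and at 0.138, 0.0919, -0.511 and -0.284 in the siRNA arm. Those of other-numbered libraries ran from -0.0808 to 0.161 and from -0.414 to 0.464. With so few libraries these values cannot show whether the numbers pair the libraries. Nothing is therefore read from the calls lost under the block. Depth was unknown, so signal too weak to be called as a peak is not seen here.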
